A study of Mus musculus with 3 samples.

Results

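The 4 group 13 Hox genes, Hoxa13, Hoxb13, Hoxc13 and Hoxd13, and the Hox neighbours Evx1 and Evx2 were described from the chromatin over the posterior ends of the 4 Hox clusters in mouse small intestinal crypts. The members were taken by position. A peak belonged to the set when it shared at least 1 bp with one of 4 fixed mm9 windows, which are chr6:52203000-52280000 for Hoxa13 and Evx1 (77 kb), chr11:96040000-96075000 for Hoxb13 (35 kb), chr15:102730000-102762000 for Hoxc13 (32 kb) and chr2:74480000-74511000 for Evx2 and Hoxd13 (31 kb). The windows held 43 of 1477 Suz12 peaks and 126 of 25955 H3K27me3 peaks.

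Both libraries came from crypts of C57BL/6 mice with the genotype Lgr5Gfp-CreERT2, an allele of the stem cell gene Lgr5 that carries a fluorescent reporter and an inducible recombinase, and the series calls the cells wild type. Chromatin immunoprecipitation with sequencing was done once with an antibody against Suz12 and once with an antibody against H3K27me3, and an input library without antibody was not used here. With 1 library per antibody no value has a replicate error, so differences are given as sizes without a test, and the intervals on shares are exact binomial 95% intervals (Clopper-Pearson) that cover counting error only. The lists hold no read counts, so the depth behind a peak is unknown. No peak list gives an expression level, so the crypt identity of the cells was not checked.

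Hox genes encode homeodomain transcription factors that give body segments their identity, and their order in each cluster follows the order of their activity along the body. Group 13 genes sit at the last, most posterior end and act in the hindgut, the tail, the urogenital tract and the tips of the limbs. Polycomb repressive complex 2 (PRC2), of which Suz12 is a core subunit, trimethylates histone H3 at lysine 27 (H3K27me3), and keeps Hox genes silent in cells that do not use them. Hoxa13 and Hoxd13 pattern the digits and the hindgut, Hoxb13 acts in the tail bud, the prostate and the distal colon, and Hoxc13 is needed for hair and nails. Evx1 and Evx2 encode homeodomain proteins related to the fly gene even-skipped and are known for specifying spinal cord interneurons, and Evx2 also acts in the limb.

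Gene order was read from the RefSeq gene table, which follows GRCm38.p6. Hoxa13 lies between Hoxa11 and Evx1, with the long noncoding RNA genes Hottip and Evx1os between Hoxa13 and Evx1. Evx2 lies between Lnpk and Hoxd13, and Hoxd12 follows. Hoxb13 has Ttll6 on its outer side and Hoxb9 as the next coding gene of its cluster, and Hoxc13 lies between Calcoco1 and Hoxc12. No mm9 annotation was used here, so peaks inside a window were not assigned to a gene, exon or intron, and in the windows with a pair of coding genes they are given by position only.

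PRC2 sites in mammals commonly lie over CpG-rich DNA, and the promoters of the members are shown for that reason, with every CG dinucleotide in capitals. The sequences are RefSeq promoters of GRCm38.p6, running from 250 bases before to 50 bases after the gene start, and 4 of the 6 members had an entry. They are Hoxa13 (chr6:52260831-52261130, minus strand), Hoxd13 (chr2:74667975-74668274, plus strand), Evx2 (chr2:74659508-74659807, minus strand) and Evx1 (chr6:52313248-52313547, plus strand). These coordinates belong to another build than the peaks and cannot be set against them.
Hoxa13: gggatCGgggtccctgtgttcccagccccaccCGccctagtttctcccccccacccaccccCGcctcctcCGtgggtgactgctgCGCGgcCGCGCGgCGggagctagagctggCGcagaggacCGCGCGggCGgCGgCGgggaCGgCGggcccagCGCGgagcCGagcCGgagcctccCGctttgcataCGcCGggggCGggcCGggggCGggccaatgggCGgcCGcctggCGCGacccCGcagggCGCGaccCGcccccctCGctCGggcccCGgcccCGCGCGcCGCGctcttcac
Hoxd13: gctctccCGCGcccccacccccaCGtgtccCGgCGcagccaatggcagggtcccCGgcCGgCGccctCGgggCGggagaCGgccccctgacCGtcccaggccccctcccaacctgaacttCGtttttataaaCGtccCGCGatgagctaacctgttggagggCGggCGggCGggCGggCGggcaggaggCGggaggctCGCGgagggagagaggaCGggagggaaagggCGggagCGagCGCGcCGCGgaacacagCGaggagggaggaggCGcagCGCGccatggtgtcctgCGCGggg
Evx2: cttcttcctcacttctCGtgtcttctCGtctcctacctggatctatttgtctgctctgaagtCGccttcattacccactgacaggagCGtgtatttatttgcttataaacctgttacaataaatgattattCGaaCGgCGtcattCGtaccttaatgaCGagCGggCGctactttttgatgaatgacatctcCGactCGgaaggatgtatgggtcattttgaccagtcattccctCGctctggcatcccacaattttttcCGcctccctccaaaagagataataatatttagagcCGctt
Evx1: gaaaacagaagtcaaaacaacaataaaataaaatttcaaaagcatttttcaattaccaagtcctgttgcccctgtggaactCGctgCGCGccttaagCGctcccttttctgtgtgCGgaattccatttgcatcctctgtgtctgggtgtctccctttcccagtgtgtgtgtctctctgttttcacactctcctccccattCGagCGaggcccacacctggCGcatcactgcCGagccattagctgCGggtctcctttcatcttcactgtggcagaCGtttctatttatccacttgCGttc

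The promoters of Hoxa13 and Hoxd13 held more CG dinucleotides than those of Evx1 and Evx2, and those of Hoxb13 and Hoxc13 were not available. The 300 bases of Hoxa13 held 45 CG dinucleotides at a GC content of 81.0%, and those of Hoxd13 held 37 at 74.3%. Across 32851 RefSeq mouse promoters of the same length the median was 7 (quartiles 3 and 20), and 1.93% held at least as many as Hoxa13 and 5.58% at least as many as Hoxd13. Evx2 held 16 at a GC content of 44.3% and Evx1 held 12 at 48.7%, numbers reached by 33.0% and 39.6% of all promoters. Relative to the number that the C and G content of each sequence gives, the ratio of CG dinucleotides was highest at Evx2 (1.13), followed by Hoxa13 (0.918), Hoxd13 (0.904) and Evx1 (0.710), against a median of 0.384 over all promoters. The dinucleotide reads the same on both strands, so a count on the printed strand covers both. Whether a peak covers these bases was not determined.

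H3K27me3 covered more than 50% of each posterior end, while Suz12 coverage ranged widely and was lowest at Hoxc13. H3K27me3 peaks covered 59.1% of the Hoxa13 and Evx1 window, 66.3% of the Hoxb13 window, 50.8% of the Hoxc13 window and 63.3% of the Evx2 and Hoxd13 window. Suz12 peaks covered 23.1% at Hoxa13 and Evx1, 22.9% at Hoxb13, 0.859% at Hoxc13 and 32.5% at Evx2 and Hoxd13. Over all autosomal sequence the shares were 0.591% for H3K27me3 and 0.0420% for Suz12. The Hoxc13 window carried the mark with a lone Suz12 peak, while each of the other windows held at least 10.

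**Figure D1:**
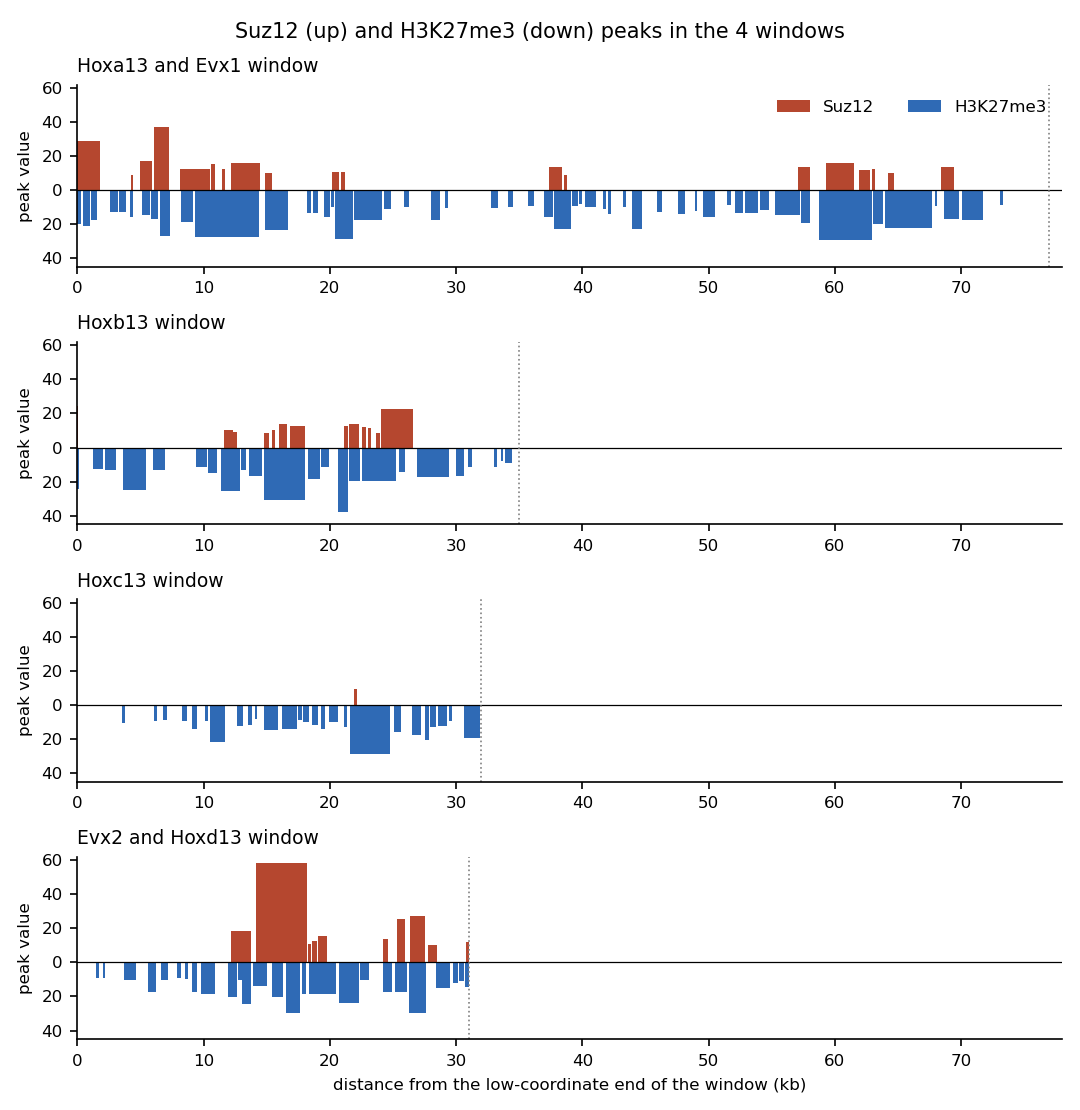
Peaks of each list along the 4 windows, with the distance in kb from the low-coordinate end on the x axis and the authors' peak value on the y axis, Suz12 upward in red and H3K27me3 downward in blue. A dotted line marks the end of each window. H3K27me3 peaks lie in all 4 windows, with stretches of up to 3.68 kb without one, and the Hoxc13 window shows 1 low Suz12 peak with a value of 9.14.

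Peak counts per length were also lowest at Hoxc13 for Suz12, but the order of the other windows differed from that by coverage. The Hoxb13 window held 13 Suz12 peaks, or 3.71 per 10 kb, the Evx2 and Hoxd13 window held 10, or 3.23 per 10 kb, and the Hoxa13 and Evx1 window held 19, or 2.47 per 10 kb. The Hoxc13 window held 1, or 0.312 per 10 kb. H3K27me3 peaks numbered 51 in the Hoxa13 and Evx1 window (6.62 per 10 kb), 23 at Hoxb13 (6.57 per 10 kb), 26 at Hoxc13 (8.12 per 10 kb) and 26 at Evx2 and Hoxd13 (8.39 per 10 kb). The Hoxc13 window was thus among the denser in H3K27me3 peaks. Its H3K27me3 peaks were also the narrowest, with a median of 446 bp, against 746 bp at Evx2 and Hoxd13, 597 bp at Hoxa13 and Evx1 and 835 bp at Hoxb13.

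The strongest Suz12 signal of the 4 posterior ends lay at Evx2 and Hoxd13. A peak of 4037 bp at chr2:74494125-74498161 had a value of 58.1 and ranked 5 among all 1477 Suz12 peaks, and H3K27me3 peaks covered 81.7% of it. Next in this window were the peaks at chr2:74506344-74507536, with a value of 27.1, and at chr2:74505285-74505984, with a value of 25.3, both wholly under H3K27me3. The 10 Suz12 peaks of the window ranged from 10.4 to 58.1 with a median of 14.6. Together they formed a group of 19.0 kb when gaps of up to 5000 bp were joined, and 54.1% of that stretch lay in Suz12 peaks. The group had no Suz12 peak between 74499751 and 74504248, a gap that was bridged by the joining.

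The 3 highest H3K27me3 peaks at Evx2 and Hoxd13 overlapped Suz12. The peak at chr2:74496534-74497661 had a value of 29.9 and lay wholly inside the strongest Suz12 peak. The peak at chr2:74506311-74507651 reached 29.6, with 89.0% of its bases in a Suz12 peak, and the peak at chr2:74493079-74493732 reached 24.6, with 98.9%. The widest, 2189 bp at chr2:74498316-74500504, had a value of 18.4. The smallest overlap of any Suz12 peak in the windows was that at chr2:74507783-74508470, with a value of 10.4, where 6.10% of the bases were under H3K27me3. The first 12.2 kb of the window, which in gene order is the Lnpk side of Evx2, held no Suz12 peak but all or part of 10 H3K27me3 peaks over 40.4% of its bases.

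In the window of Hoxa13 and Evx1, Suz12 fell into 3 groups when gaps of up to 5000 bp were joined. No other limit was tried for Suz12 groups, and their number depends on it. The first group had no Suz12 peak between 52218384 and 52223167. The group at the low-coordinate end, the Hoxa11 side, spanned 22.02 kb (chr6:52202186-52224207) with 11 peaks, and held the highest value of the window. That peak, at chr6:52209100-52210300, had a value of 37.0, ranked 21 in the Suz12 list, and lay 90.7% under H3K27me3. The next, at chr6:52202186-52204799, was the widest at 2614 bp and had a value of 29.1, but only 1800 bp of it lay inside the window. The peak at chr6:52208003-52208935 followed with 17.1.

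The remaining Suz12 groups of that window reached lower values. A pair of peaks at chr6:52240328-52241759 had values of 13.4 and 8.90. At the Evx1 side, 6 peaks between 52260062 and 52272471 had values of 9.99 to 15.9. The Evx1 side group lay 85.0% under H3K27me3 and the Hoxa11 side group 70.8%, so the group with the lower highest Suz12 value had more of its sequence under the mark. Between the pair and the Evx1 side group, 18.3 kb without a Suz12 peak held all or part of 17 H3K27me3 peaks over 55.3% of the bases. The 3 highest H3K27me3 peaks of the window were split between its ends, with 29.1 at chr6:52261762-52265936, 28.8 at chr6:52223448-52224845 and 27.5 at chr6:52212314-52217403. The last was the widest H3K27me3 peak in any of the 4 windows at 5090 bp.

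At Hoxb13, 12 of the 13 Suz12 peaks formed a group of 15.0 kb at chr11:96051634-96066630 with a median value of 11.9. The highest of that group was the widest Suz12 peak of the window, 2545 bp at chr11:96064086-96066630, with a value of 22.9 and 65.7% under H3K27me3. The peak at chr11:96061503-96062305 followed with 14.1. The remaining member, at chr11:96038113-96040073 with a value of 24.6, entered the window by 74 bp only, so the highest Suz12 value of this window rests on where the window begins. The 11.6 kb between it and the group held all or part of 8 H3K27me3 peaks and no Suz12.

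H3K27me3 reached its highest value of the 4 windows at Hoxb13. The peak at chr11:96060677-96061440 was 764 bp wide, had a value of 38.1 and ranked 18 of 25955. A Suz12 peak with a value of 12.4 covered 35.6% of it. The next values were 30.7 at chr11:96054817-96058060, the widest of this window at 3244 bp, and 25.7 at chr11:96051363-96052878.

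**Figure D2:**
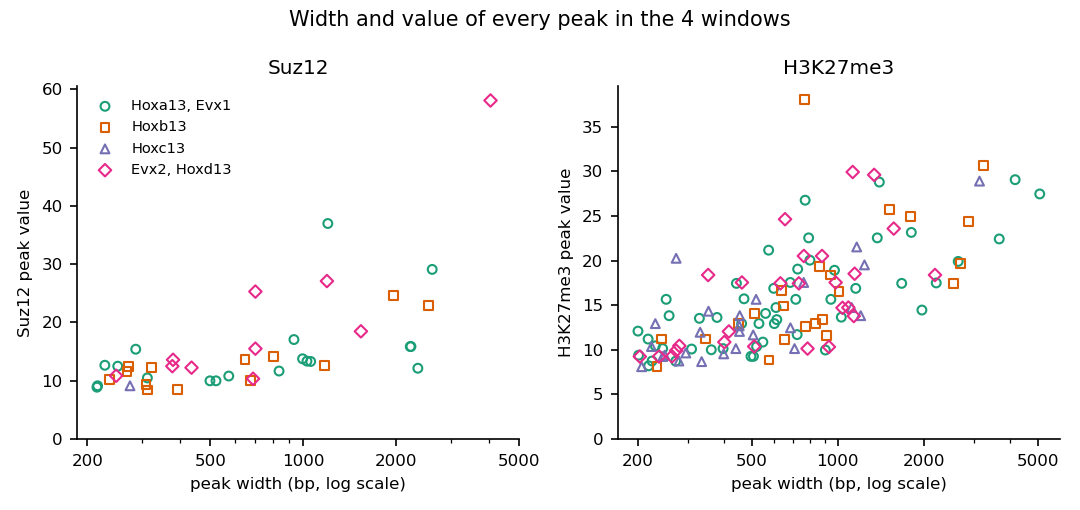
Width in bp (log scale, x axis) against the authors' peak value (y axis) for each of the 43 Suz12 and 126 H3K27me3 peaks, with a symbol for each window. The 764 bp H3K27me3 peak at Hoxb13 with a value of 38.1 stands above all other H3K27me3 peaks, and the 4037 bp Suz12 peak at Evx2 and Hoxd13 has the highest Suz12 value.

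At Hoxc13, the lone Suz12 peak lay at chr15:102751919-102752193. It was 275 bp wide with a value of 9.14, close to the list minimum of 8, and ranked 1220 of 1477. The nearest Suz12 peak above it was 14.5 kb away (value 8.90) and the nearest below it was 174 kb away. The peak sat inside the strongest and widest H3K27me3 peak of the window, 3133 bp at chr15:102751630-102754762, which had a value of 28.9 and ranked 295 in its list. Suz12 covered 8.78% of that H3K27me3 peak. The following H3K27me3 values were 21.5 at chr15:102740508-102741672 and 20.3 at chr15:102757554-102757825, neither of them with Suz12. The 21.9 kb from the window start to the lone Suz12 peak held all or part of 19 H3K27me3 peaks. Since sites under a value of 8 are not in the Suz12 list, weaker Suz12 in this window was not assessed.

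H3K27me3 was found at each of the 43 Suz12 peaks in the windows, a share of 100% (interval 91.8 to 100). Over the whole Suz12 list the share was 96.3%, so the windows were near the background in this respect. By bases, 88.6% of Suz12 sequence in the windows lay under H3K27me3, with 90.7% at Hoxa13 and Evx1, 88.7% at Hoxb13 and 84.6% at Evx2 and Hoxd13.

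The reverse share varied between the posterior ends. Of the 126 H3K27me3 peaks in the windows, 41 overlapped a Suz12 peak, or 32.5% (interval 24.5 to 41.5), against 4.71% of the whole H3K27me3 list. Outside the windows but in the same joined domains it was 29.3% (23.5 to 35.8), an interval that overlaps that of the windows. The share was 50% (29.9 to 70.1) at Evx2 and Hoxd13, 39.2% (25.8 to 53.9) at Hoxa13 and Evx1, 30.4% (13.2 to 52.9) at Hoxb13 and 3.85% (0.0973 to 19.6) at Hoxc13. At Hoxc13 the lone Suz12 peak lay inside 1 H3K27me3 peak, so the share there, 1 of 26, follows from the Suz12 count. It is not separate evidence, and the windows were not tested against each other. Neighbouring peaks are not independent, so these intervals are narrower than the true uncertainty. Sequence in H3K27me3 peaks exceeded sequence in Suz12 peaks 1.95-fold at Evx2 and Hoxd13, 2.56-fold at Hoxa13 and Evx1, 2.89-fold at Hoxb13 and 59.1-fold at Hoxc13. The last ratio rests on the lone Suz12 peak of 275 bp and restates the Suz12 count. Over all autosomal sequence H3K27me3 peaks covered 0.591% and Suz12 peaks 0.0420%, so an excess of H3K27me3 is general to the lists.

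H3K27me3 peaks that overlapped Suz12 had the higher values in each window. In the windows together the median value was 19.7 in the 41 peaks with Suz12 and 12.1 in the 85 without. At Hoxb13 the medians were 24.4 with Suz12 and 12.95 without, at Hoxa13 and Evx1 19.5 with and 12.1 without, and at Evx2 and Hoxd13 18.4 with and 10.4 without. The 24.4 at Hoxb13, from 7 peaks, is the value of the peak at chr11:96037298-96040165, which entered the window by 166 bp only. At Hoxc13 the lone peak with Suz12, at 28.9, was above all 25 without, which reached 21.5. In the rest of the list the medians were 20.5 with Suz12 and 11.1 without. The groups overlapped in the other 3 windows: peaks without Suz12 reached 24.9 at Hoxb13, 23.6 at Evx2 and Hoxd13 and 22.6 at Hoxa13 and Evx1. Peaks with Suz12 were also wider, with a median of 983 bp against 497 bp, and the part of width in the difference in value was not tested.

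**Figure D3:**
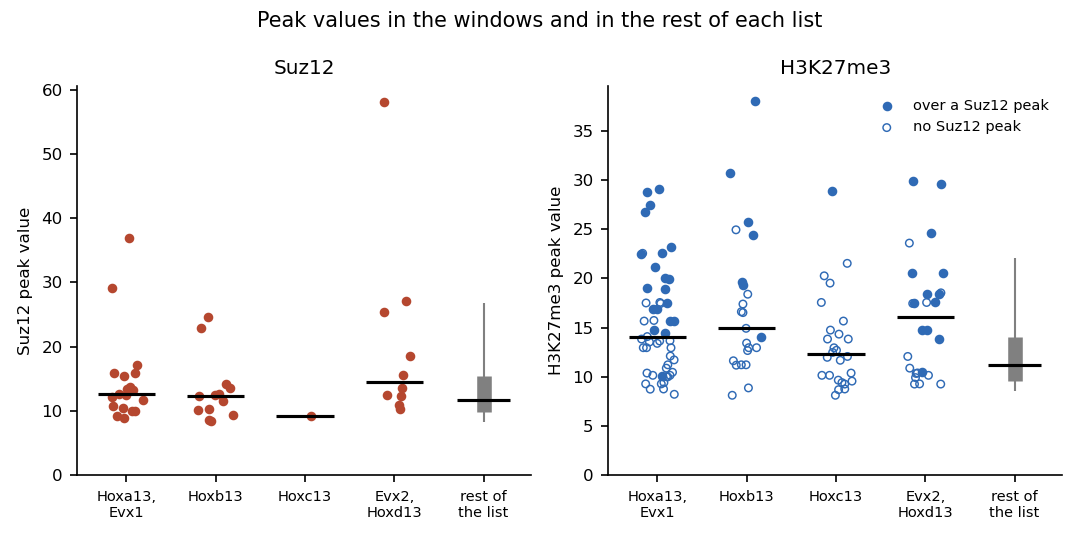
The authors' peak value (y axis) of each Suz12 peak (left) and H3K27me3 peak (right) by window, with black lines at the medians. For the rest of each list, the grey bar spans the quartiles and the thin line the percentiles from 5 to 95; filled H3K27me3 points overlap a Suz12 peak and have a median of 19.7 over all windows, and open points do not and have a median of 12.1.

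Peaks with a value of at least 20, a limit set after the values were seen, made up 7.73% of the H3K27me3 list and 12.1% of the Suz12 list. Among the H3K27me3 peaks of the windows 24 of 126 reached it, or 19.0% (interval 12.6 to 27), with 6 of 26 at Evx2 and Hoxd13, 5 of 23 at Hoxb13, 10 of 51 at Hoxa13 and Evx1 and 3 of 26 at Hoxc13. Among the Suz12 peaks of the windows 7 of 43 reached it, or 16.3% (6.81 to 30.7), an interval that holds the share of the whole list. Of these 7, 3 were at Evx2 and Hoxd13, 2 at Hoxa13 and Evx1 and 2 at Hoxb13. The Hoxb13 count in each list includes the peak that crosses the window start.

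Set beside the rest of its list, the median H3K27me3 peak of the windows was stronger, at 13.8 against 11.2, and wider, at 621 against 378 bp. Suz12 peaks had a median value of 12.5 in the windows against 11.7 in the rest, and a median width of 648 against 418 bp. Compared with the remainder of the H3K27me3 domains that reach into the windows, the direction turned for 3 of these 4 measures. The median H3K27me3 value was 13.8 in the windows and 15.3 in that remainder, and the median width 621 and 689 bp. For Suz12 the medians were 12.5 and 12.7 in value, and 648 and 517 bp in width. The quartiles of all 4 measures overlapped between windows and remainder.

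After H3K27me3 peaks up to 5000 bp apart had been merged into domains, each window was reached by a domain that extended beyond it. The domain at Hoxa13 and Evx1 was 181 kb long, that at Hoxc13 172 kb and that at Evx2 and Hoxd13 111 kb, and the windows took 40.4%, 16.6% and 26.5% of them. The Hoxb13 window lay in a domain of 56.9 kb (chr11:96024945-96081822) with 37 H3K27me3 and 16 Suz12 peaks. It was 24.8 kb short of the next domain with Suz12, at chr11:96106630-96218807, in the direction of Hoxb9. With a joining gap of 10000 bp the Hoxb13 domain measured 231 kb and took in that next domain, so the separation depends on the gap.

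The windows differed in Suz12 from the remainder of their own domains, in both directions. Suz12 covered 32.5% of the Evx2 and Hoxd13 window against 23.3% of the remainder of its domain, and 22.9% of the Hoxb13 window against 16.4%. It covered 23.1% of the Hoxa13 and Evx1 window against 35.6%, and 0.859% of the Hoxc13 window against 8.84%. The remainder of the Hoxc13 domain, 143 kb on the side where Hoxc12 follows in gene order, held 24 Suz12 peaks, or 1.67 per 10 kb, against 2.96 beside Hoxa13 and Evx1, 3.18 beside Evx2 and Hoxd13 and 1.37 beside Hoxb13. These counts leave out peaks that touch a window, while remainder coverage includes their bases outside it. At Hoxb13 a Suz12 peak of 1961 bp with 74 bp inside the window is treated so. H3K27me3 covered 50.8% of the Hoxc13 window and 68.2% of its remainder, 59.1% and 71.8% for Hoxa13 and Evx1, 63.3% and 68.5% for Evx2 and Hoxd13, and 66.3% and 57.5% for Hoxb13. Beside the next domain toward Hoxb9, the Hoxb13 window had more of its sequence in Suz12 peaks, 22.9% against 11.4%, and in H3K27me3 peaks, 66.3% against 54.5%. That domain was chosen after its values were seen. All windows but that of Hoxb13, which lies wholly inside its domain, also hold some sequence outside the joined domains, up to 3.68 kb at Hoxa13 and Evx1, which lowers their coverage.

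**Figure D4:**
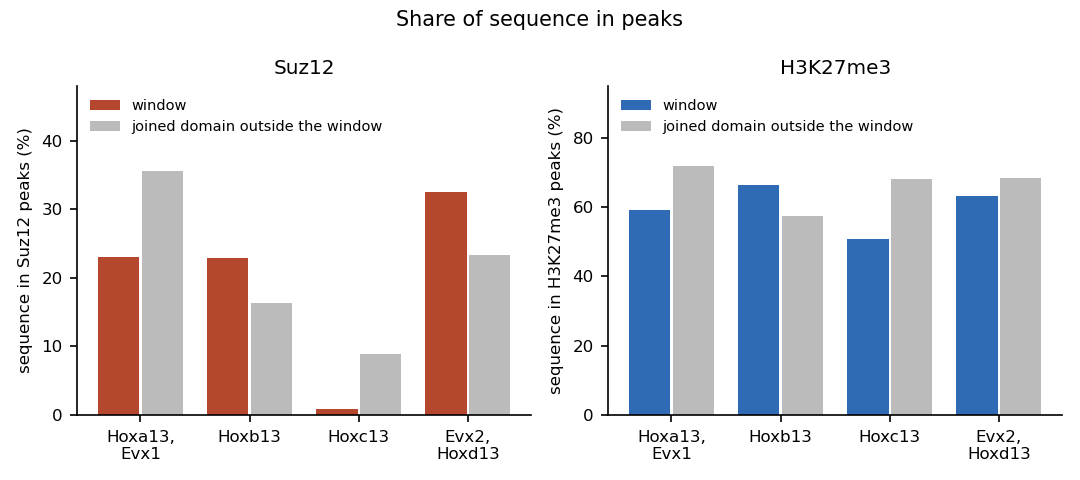
Percent of sequence in Suz12 peaks (left) and in H3K27me3 peaks (right) for each window (coloured bars) and for the part of its joined H3K27me3 domain outside the window (grey bars). Suz12 coverage at Hoxc13 is 0.859% in the window and 8.84% outside it, and Evx2 and Hoxd13 have the highest window value at 32.5%.

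With gaps of up to 5000 bp joined, the edge of the domain on the side away from the other Hox genes in gene order lay inside 3 of the windows. At each of them the edge lay past the outermost Suz12 peak of the domain, by 3.85 kb at Hoxa13 and Evx1, 10.7 kb at Evx2 and Hoxd13 and 18.4 kb at Hoxc13. The Hoxb13 domain began 9.50 kb before its first Suz12 peak, which lay outside the window. Distances were measured inside the H3K27me3 domain, so Suz12 reaching past the mark could not be recorded. At the opposite edge, toward the other Hox genes, the distance was longer in each domain. It was 30.0 kb at Hoxa13 and Evx1, 18.5 kb at Evx2 and Hoxd13, 58.4 kb at Hoxc13 and 15.2 kb at Hoxb13. Beyond the Evx1 side edge, at 52276321 on chromosome 6, the next H3K27me3 peak was 479 kb away. The next was 14.4 kb away at Evx2, 8.68 kb at the Hoxb13 domain and 6.11 kb at Hoxc13. The distance was thus longest beyond Evx1. The distances at Hoxb13 and Hoxc13 are below the alternative gap of 10000 bp, so the edges there depend on the gap. With that gap the Hoxc13 edge would lie outside its window. With a gap of 1000 bp, the outermost H3K27me3 peaks at Hoxa13 and Evx1 and at Evx2 and Hoxd13 would be split off. Those edges thus depend on the gap too. For Suz12 the next peak beyond the outer edge was 1492 kb away on chromosome 6 and 1362 kb on chromosome 2, and 155 kb at Hoxb13 and 156 kb at Hoxc13. Beyond the opposite edge it was 964 kb on chromosome 6, 10134 kb on chromosome 2 and 40.4 kb at Hoxb13. No further Suz12 peak followed on that side at Hoxc13. Suz12 peaks are sparse, at 0.00592 per 10 kb of autosomal sequence, so long distances do not set the outer edges apart.

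In steps of 1 kb, 36 of the 175 steps in the windows had at least 500 bp in peaks of each list, 74 had that much H3K27me3 only, 3 Suz12 only and 62 neither. Steps with both numbered 17 of 77 at Hoxa13 and Evx1, 8 of 35 at Hoxb13, and 11 of 31 at Evx2 and Hoxd13. At Hoxc13 no step could reach 500 bp of Suz12, since the lone peak is 275 bp wide. Steps with H3K27me3 only numbered 29 at Hoxa13 and Evx1, 16 at Hoxb13, 11 at Evx2 and Hoxd13 and 18 at Hoxc13. Steps were not counted outside the windows, so whether these numbers differ from other H3K27me3 domains cannot be told.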

How the data were processed

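Crypt chromatin was immunoprecipitated with antibodies against Suz12 or H3K27me3 and sequenced. Bowtie, MACS2 and the build mm9 are listed, with no version or setting, in the submitters' processing notes. For each antibody the authors deposited a list of peaks with a score for each peak that is called the peak value here. The sources used here do not give the quantity behind the score or the use made of the input. Scores begin at 8 and peaks are at least 200 bp wide in both lists. Scores were used only to describe and rank peaks within a list.

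Peak starts were counted from 1. A peak belonged to a window, or to a peak of the other list, from 1 bp of overlap. Coverage was computed on the part of each peak inside the window. Peaks were joined into domains over gaps of at most 5000 bp. Alternatives were peak centres, the upper 50% of each list by value, windows widened by 5000 bp, other overlap rules and gaps of 1000 and 10000 bp. The mm9 chromosome lengths came from GenomeInfoDb 1.38.1. The code ran in Python 3.11.15 with scipy 1.17.1, pandas 2.3.3, numpy 2.4.6 and matplotlib 3.10.9, and its overlap and joining steps were tested on simulated data. The rule for named peaks was the 3 highest and the widest of each list in each window, and the longest stretch without a peak. The comparison of the Hoxb13 window with the next domain was added after the data were seen, and so were the counts in steps of 1 kb, the domain edges and the value of 20. The members, windows and lists were chosen with earlier results of these data known.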

Additional observations from a re-analysis of the deposited data

How the results depend on the processing

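No replicate could be left out of 1 library. No paired analysis was possible because there is only 1 library for each antibody. Of 58 alternatives, 26 left the value within bounds, 28 moved it and 4 turned its direction. The bounds were the counting interval for coverage and shares, and 1.5 times for counts, lengths and differences of medians. For coverage that interval is narrow, so small shifts count as moves. An example is H3K27me3 at Hoxa13 and Evx1, from 59.1% to 57.7% in widened windows. With the upper 50% of each list by value, Suz12 peaks numbered 7 at Hoxb13 and 0 at Hoxc13, and H3K27me3 peaks 16 at Hoxc13 and 17 at Evx2 and Hoxd13. Coverage with these lists was 20.02% for Suz12 and 52.0% for H3K27me3 at Hoxa13 and Evx1, 16.7% and 62.2% at Hoxb13, 0% and 40.2% at Hoxc13, and 29.4% and 50.8% at Evx2 and Hoxd13. In windows widened by 5000 bp it was 24.4% and 57.7% at Hoxa13 and Evx1, 24.6% and 64.2% at Hoxb13, and 28.6% and 59.1% at Evx2 and Hoxd13, and Suz12 covered 1.402% at Hoxc13. Hoxc13 had the lowest Suz12 coverage in all these settings. The share of H3K27me3 peaks with Suz12 was 46.0% within 1000 bp and 43.3% for the upper 50% of H3K27me3 peaks, and it was 25.4% with at least 50% of the peak covered and 26.2% with the upper 50% of Suz12 peaks.

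The median Suz12 value of the windows exceeded that of the rest of the list by 0.85, and lay below it, at -1.57, in the upper 50% of the list. Set beside the joined domains outside the windows, the difference in median was -0.19 for Suz12 value and 131 bp for Suz12 width, and -1.43 for H3K27me3 value and -68 bp for H3K27me3 width. The cause was not tested. With peaks joined over 1000 bp, the longest domain reaching a window measured 52603 bp at Hoxa13 and Evx1, 21903 bp at Hoxb13, 48171 bp at Hoxc13 and 19435 bp at Evx2 and Hoxd13. At 10000 bp it measured 188799 bp at Hoxa13 and Evx1, 231017 bp at Hoxb13, 254618 bp at Hoxc13 and 126565 bp at Evx2 and Hoxd13. The minimum value of 8 limits what any count shows about weaker sites.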
